A study of Homo sapiens with 4 samples.

Results

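Described here are 43 human genes of autophagy, of lysosomal enzymes and membranes, and of the vacuolar ATPase (V-ATPase). They were chosen by name, with earlier results of these data known. A probe could be tied to 38 of them, and 37 had a probe that was detected, out of 10073 genes tested. Transcripts were measured on Illumina expression BeadChips in MDA-231 cells, also written MDA-MB-231, a human breast cancer line of mesenchymal character. The cells carried either the plasmid pCMV-TARBP2 or the control plasmid pCMV-GFP, delivered by transient transfection with TransIT reagent, and RNA was taken 48 hours later, with 2 arrays per plasmid. Both plasmids use the CMV promoter, so every group received foreign DNA and an expressed protein, and no source used here states how many cells took up plasmid. The design text of the series speaks of mock transfection, whereas the sample labels name GFP, and the labels were followed. The question is which transcripts differ once TARBP2, a protein that binds double-stranded RNA and works with DICER1, is raised.

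Autophagy encloses cell material in a membrane that then fuses with the lysosome. ULK1 and BECN1 complexes start the membrane, the ATG12, ATG5 and ATG16L1 complex attaches ATG8 proteins such as MAP1LC3B to it, and cargo receptors such as SQSTM1 bridge tagged cargo and ATG8 proteins. The V-ATPase pumps protons into the lysosome and so keeps its hydrolases active. TFEB is a transcription factor known to switch on many lysosomal and autophagy genes when nutrients are short.

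The TARBP2 transcript stood at log2 levels of 15.11 and 15.12 in cells given its plasmid and at 7.26 and 6.97 in GFP cells, a 257-fold rise (limma adjusted p = 4.79e-05). A dimmer TARBP2 probe tied to another transcript had a log2 change of -0.22 (adjusted p = 0.0722) and did not pass, and no source used here says whether it lies within the insert. Levels are background-corrected, quantile-normalized log2 intensities, and a transcript rose or fell where it differed from the GFP arrays in that direction at an adjusted p under 0.05. Between 44.1% and 45.9% of probes were detected per array. In all, 4535 of 22123 detected probes rose (20.5%) and 4382 fell (19.8%), together 40.3%. The labels do not say that the arrays of a group came from separate cultures, so p-values measure only the spread between arrays, which may be technical. Effects of the plasmid and of anything else that set the cultures apart cannot be told apart. Of the markers of the line, VIM, CD44 and SPARC were listed as present, and ESR1, CDH1 and EPCAM as low or absent. VIM had a mean log2 level of 14.42 on the TARBP2 arrays and 14.60 on the GFP arrays on its brightest probe. Its dimmer probe fell (log2 change -0.25, adjusted p = 0.0484). CD44 lay between 13.31 and 13.39 on its brightest probe. SPARC, listed as present, was not detected on any array, nor was ESR1. CDH1 was detected on the GFP arrays alone, near background, and was tested only for that reason. It fell (log2 change -0.50, adjusted p = 0.0148). No probe was tied to EPCAM.

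Of the 37 members tested, 9 rose, 8 fell and 20 did not pass, so that 45.9% changed. Over all 10073 genes, each read by its brightest detected probe as the members were, 49.2% changed, 25.1% upward and 24.1% downward, and over all detected probes 40.3% did (20.5% upward and 19.8% downward). The members thus changed about as often as genes in general, in both directions, and what follows describes which of them moved rather than a shift of the whole set. Their median log2 change was 0.01, against -0.0029 over all genes. The median size of change without regard to sign was 0.27 among members and 0.32 among all genes. Changes of at least 2-fold were found for 2 members, OPTN and CTSC, or 5.41%, against 9.31% of all genes. Each of these 2 was under 2-fold in at least 1 alternative setting. Both TARBP2 arrays lay on the same side of both GFP arrays for 28 members (75.7%), against 79.1% of all genes and 71.7% of all detected probes.

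**Figure D1:**
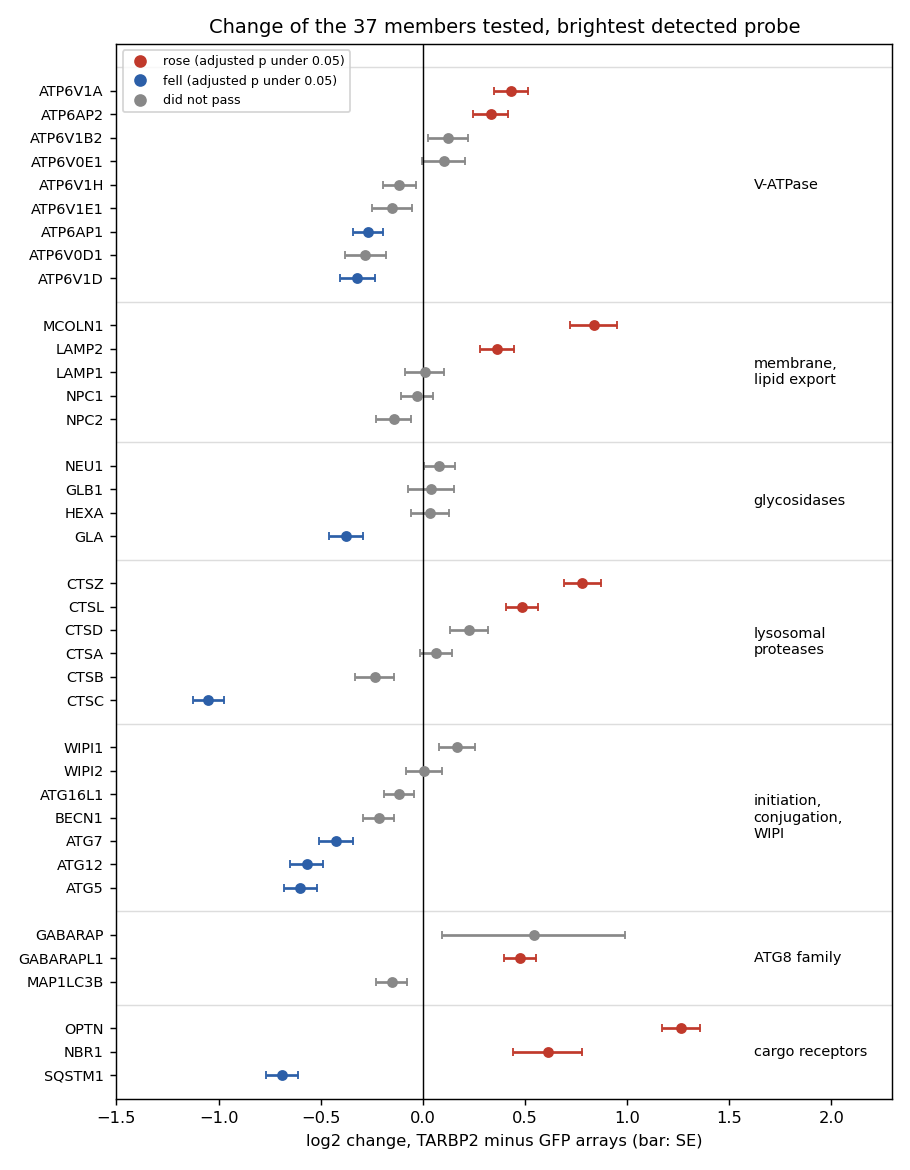
Log2 change (TARBP2 minus GFP arrays, x axis, bars are SE, 2 arrays per group) of the 37 members tested, grouped by role, with red for members that rose, blue for members that fell and grey for members that did not pass. OPTN is farthest right at 1.27 and CTSC farthest left at -1.05, and GABARAP has the widest error bar.

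Of the cargo receptors, OPTN rose and SQSTM1 fell, while the call on NBR1, which was tested only because the TARBP2 arrays detected it, was not stable. OPTN, optineurin, which delivers damaged mitochondria and bacteria to the autophagosome, had log2 levels of 9.71 and 9.71 with TARBP2 against 8.54 and 8.35 with GFP. The groups lay more than 1 log2 unit apart, and OPTN rose 2.40-fold (log2 change 1.27 ± 0.09, SE, n = 2 arrays per group; limma adjusted p = 0.00132). SQSTM1, also called p62, which binds ubiquitin-tagged cargo and is itself degraded by autophagy, had log2 levels of 13.69 and 13.63 with TARBP2 and 14.39 and 14.31 with GFP. The replicates of each group lay close together and the groups did not overlap, with a fall of 0.69 ± 0.08 on the log2 scale (adjusted p = 0.00397). NBR1, a relative of SQSTM1 that can act with it, lay near background, at 5.29 and 5.46 with TARBP2 against 4.98 and 4.54 with GFP. NBR1 was not above background on either GFP array, so it was at least 1.21-fold higher (adjusted p = 0.042 for the log2 change between the groups). That bound sets the bright group against the detection floor of each dim array, or against the probe's signal there where it exceeds the floor. The NBR1 call was lost when either TARBP2 array was left out (adjusted p = 0.115 and 0.182), when GFP replicate 2 was left out (0.0915), without a detection filter (0.0641) and with the replicate number as a block (0.0579). The log2 change of NBR1 was 0.61 ± 0.17 and fell to 0.30 with a larger background offset. The other NBR1 probe was not detected on any array.

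In the ATG8 family, whose members are attached to the autophagosome membrane and bind cargo receptors, 1 of 3 members tested rose and none fell. Of all genes, 25.1% rose and 24.1% fell. GABARAPL1 had log2 levels of 8.98 and 8.93 with TARBP2 and 8.43 and 8.53 with GFP, a rise of 0.48 ± 0.08 (adjusted p = 0.0108). Its call did not hold on leaving out either TARBP2 array, nor without replicate 1 of the GFP arrays, where the adjusted p lay between 0.0529 and 0.0621. MAP1LC3B, the most widely used autophagosome marker, had log2 levels of 10.04 and 10.00 against 10.20 and 10.15. Its 4 arrays spanned little range, and it did not pass (log2 change -0.15 ± 0.08, adjusted p = 0.171). GABARAP stood at 7.25 and 7.11 with TARBP2 against 5.95 and 7.32 with GFP. The groups overlapped, and the GFP arrays differed from each other by more than 1 log2 unit (log2 change 0.54 ± 0.45, adjusted p = 0.386). Leaving out GFP replicate 2 moved GABARAP to 1.23 on the log2 scale (adjusted p = 0.00841), so a single array decided that value. No probe could be tied to GABARAPL2, for which the authors' deposited table gives a log ratio of -0.04.

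The conjugation genes that were tested fell or did not pass, and none rose. ATG5, which joins ATG12 in the enzyme complex that attaches ATG8 proteins to lipid, had log2 levels of 7.69 and 7.58 with TARBP2 and 8.23 and 8.24 with GFP. It fell by 0.60 ± 0.08 (adjusted p = 0.00606), and the GFP arrays differed by 0.01 while the TARBP2 arrays differed by about 0.1. ATG12, the ubiquitin-like partner of ATG5, was at 10.82 and 10.82 against 11.34 and 11.45. Both of its detected probes fell, by 0.57 ± 0.08 (adjusted p = 0.00686) for the brighter and by 0.48 ± 0.13 (adjusted p = 0.0448) for the dimmer. These probes were tied to ATG12 as a pair through their mean, a tie that favours large log ratios. ATG7, the activating enzyme that loads both ATG12 and the ATG8 proteins, was at 9.17 and 9.18 with TARBP2 against 9.67 and 9.53 with GFP, a fall of 0.42 ± 0.08 (adjusted p = 0.0171). Without either TARBP2 array, or without replicate 1 of the GFP arrays, the adjusted p of ATG7 rose to between 0.075 and 0.082. ATG16L1, which places the conjugating complex on the membrane, did not pass on either of its probes (log2 changes -0.12 and -0.24).

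Among the genes that start the membrane or read its lipid, no member passed. BECN1, a subunit of the lipid kinase complex that makes phosphatidylinositol 3-phosphate, had log2 levels of 10.23 and 10.16 against 10.43 and 10.39. Its groups did not overlap, and its log2 change was -0.22 ± 0.08 (adjusted p = 0.0818). Several settings brought it past the threshold, among them the authors' quantile-normalized intensities (adjusted p = 0.0461) and removal of the median change of chromosomal neighbours (log2 change -0.34, adjusted p = 0.013). WIPI1 and WIPI2 bind that lipid, and their log2 changes were 0.17 (adjusted p = 0.188) and 0.0059 (adjusted p = 0.964). With the neighbours' median removed, WIPI2 passed at a log2 change of 0.26 (adjusted p = 0.0468). A dimmer WIPI2 probe was not detected. ULK1, the kinase that starts autophagy, and ATG3, the enzyme that transfers ATG8 proteins to lipid, had no tied probe. In the authors' deposited table their log ratios were 0.225 and 0.03. Over the 7 members of these roles that were tested, 3 fell and none rose, with a median log2 change of -0.22, against shares of 24.1% lower and 25.1% higher among all genes.

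**Figure D2:**
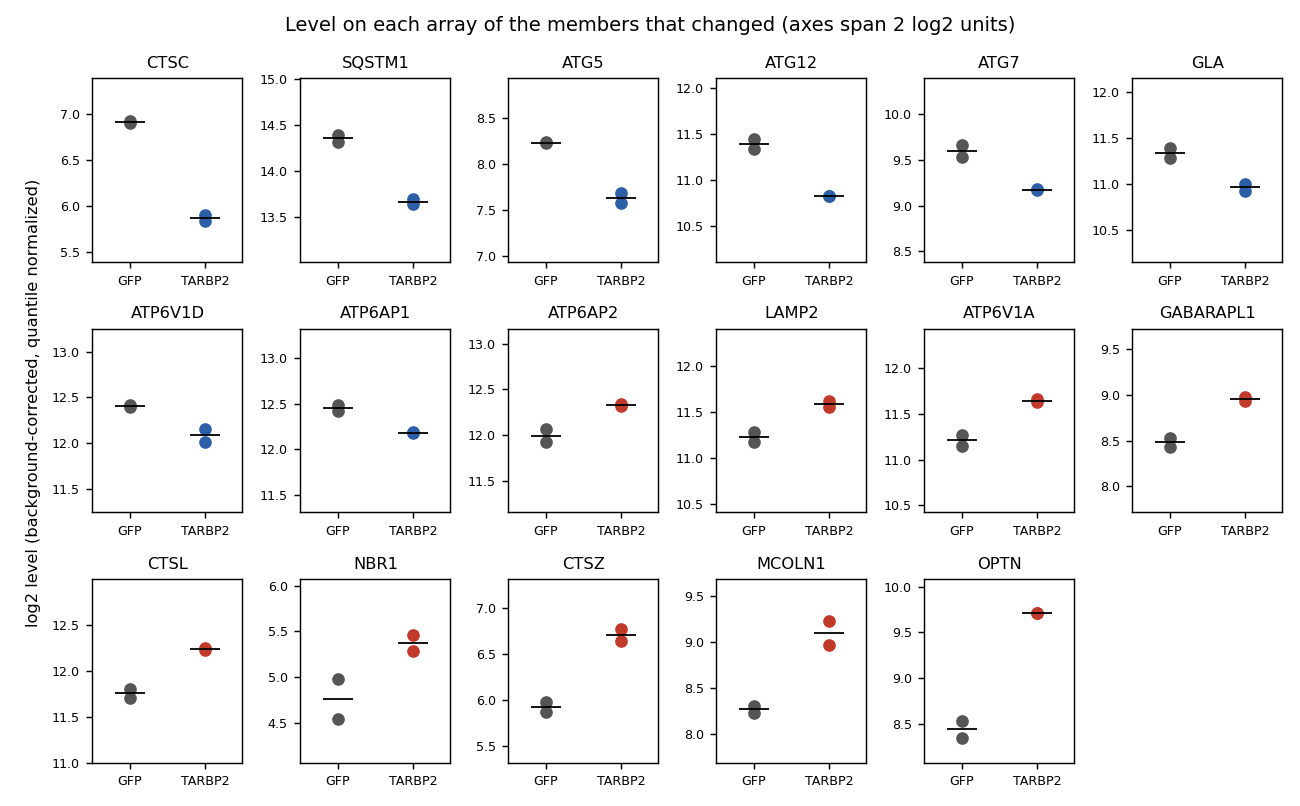
Log2 level on each array (y axis, each panel spans 2 log2 units) of the 17 members that changed, with GFP arrays in grey, TARBP2 arrays in blue (fell) or red (rose) and black lines at the group means of 2 arrays. In each panel the TARBP2 arrays lie wholly above or below the GFP arrays, and the gap is widest for OPTN and CTSC.

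Lysosomal proteases also moved both ways, with 2 of 6 higher and 1 lower, beside 25.1% higher and 24.1% lower among all genes. CTSC, dipeptidyl peptidase 1, which activates serine proteases of immune cells, had log2 levels of 5.83 and 5.90 with TARBP2 and 6.91 and 6.92 with GFP. It fell 2.07-fold (log2 change -1.05 ± 0.08, adjusted p = 0.00124), and replicates differed by less than 0.1. The probe is dim, and the size depended on the background step: the log2 change was -0.66 without background correction and -0.68 on the authors' quantile-normalized intensities, under 2-fold in both. This probe belongs to the accession NM_148170. No probe was tied to the other accession of CTSC, NM_001814, whose log ratio in the authors' deposited table was -0.24, beside -0.38 for NM_148170 in the same table. CTSZ, a carboxypeptidase, was at 6.64 and 6.77 against 5.98 and 5.87, a rise of 0.78 ± 0.09 (adjusted p = 0.00422) that was 0.48 without background correction and 0.50 on the authors' quantile-normalized intensities. CTSL, a cysteine endopeptidase, was at 12.25 and 12.23 against 11.71 and 11.80. All 3 of its detected probes rose, by 0.49, 0.31 and 0.69 on the log2 scale from the brightest to the dimmest, with adjusted p-values of 0.00963, 0.0281 and 0.0073. The call on the brightest CTSL probe was narrowly lost without either TARBP2 array (adjusted p = 0.0573 and 0.0533).

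The other proteases did not pass. CTSB, a cysteine protease often abundant in tumour cells, was at 10.76 and 10.57 with TARBP2 against 10.88 and 10.92 with GFP. Its log2 change was -0.24 ± 0.10 (adjusted p = 0.112), and that of its dimmer probe was -0.12, with overlapping groups. CTSB passed without background correction (log2 change -0.23, adjusted p = 0.0488). CTSD, an aspartic protease, had a log2 change of 0.23 ± 0.09 (adjusted p = 0.115), and passed with the neighbours' median removed (0.38, adjusted p = 0.0169). CTSA, a carboxypeptidase that also shields NEU1 and GLB1 in a complex, had a log2 change of 0.06 ± 0.08 (adjusted p = 0.563). No probe could be tied to CTSH, an aminopeptidase, whose log ratio in the authors' deposited table was 0.14.

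Of the glycosidases, which cut sugars from lipids and proteins, GLA alone passed on its brightest probe. GLA, the alpha-galactosidase whose loss causes Fabry disease, had log2 levels of 10.92 and 11.003 with TARBP2 and 11.28 and 11.40 with GFP. It fell by 0.38 ± 0.08 (adjusted p = 0.0245), but the call was lost without any 1 of the 4 arrays (adjusted p between 0.0553 and 0.108) and with the neighbours' median removed (log2 change -0.10, adjusted p = 0.327). NEU1, a sialidase, was at 10.76 and 10.74 against 10.71 and 10.63. HEXA, the alpha chain of hexosaminidase, was at 6.66 and 6.60 against 6.68 and 6.51. Neither of them passed, with log2 changes of 0.08 and 0.03 (adjusted p = 0.447 and 0.793).

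The probes of GLB1, beta-galactosidase, disagreed. Its brightest probe was at 11.17 and 10.91 with TARBP2 against 10.98 and 11.02 with GFP, with overlapping groups (log2 change 0.04 ± 0.11, adjusted p = 0.809). A second probe, tied to NM_000404, was at 10.71 and 10.64 against 10.46 and 10.39 and did not pass (log2 change 0.25 ± 0.08, adjusted p = 0.0628). The dimmest was at 9.62 and 9.46 with TARBP2 and 4.43 and 4.39 with GFP, where it was not detected. That probe was tested only because the TARBP2 arrays detected it. It was at least 21.8-fold higher, a larger change than that of any other probe of a member. The limma adjusted p of 6.72e-05 is for the log2 change between the groups and not for that bound. The brightest and the dimmest probe share the accession NM_001079811, to which they were tied as a pair through their mean, and the authors' deposited log ratio for it was 1.29. A single value ties both probes, and no probe sequence was used, so what the dimmest probe reads besides GLB1 was not tested. With genes named only through accessions tied to 1 probe, GLB1 was read by its second probe and passed at a log2 change of 0.25 (adjusted p = 0.0394).

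**Figure D3:**
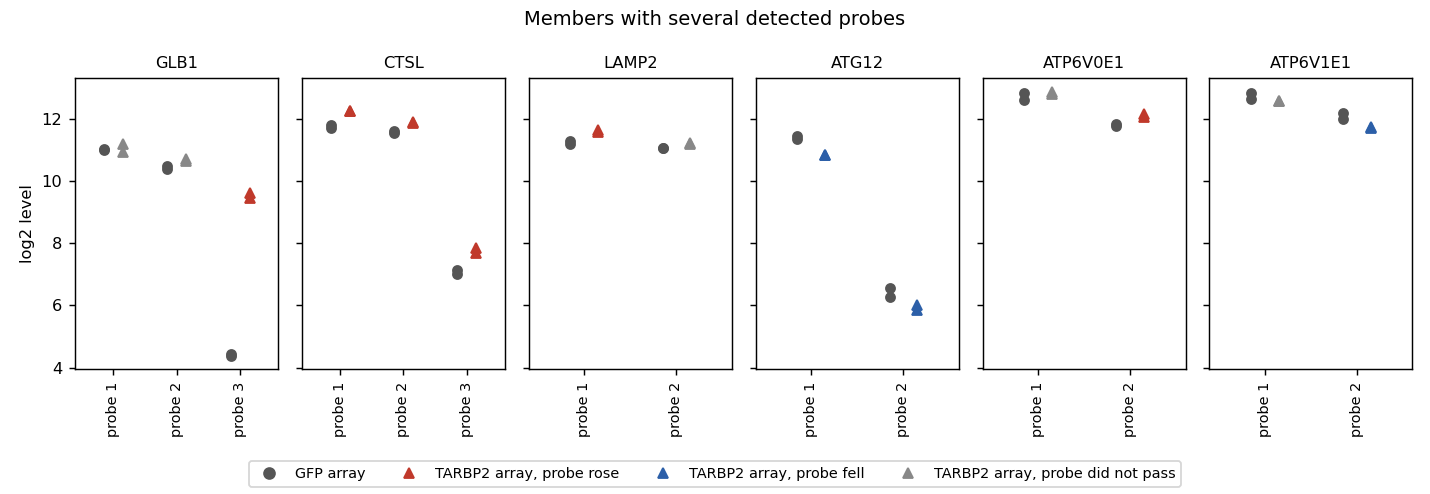
Log2 level on each array (y axis) of every detected probe of GLB1, CTSL, LAMP2, ATG12, ATP6V0E1 and ATP6V1E1, ordered from the brightest, with GFP arrays as grey circles and TARBP2 arrays as triangles in red (rose), blue (fell) or grey (did not pass). The probes of CTSL moved together, as did those of ATG12, whereas the dimmest GLB1 probe went from near 4.4 on the GFP arrays to near 9.5 and the other GLB1 probes did not pass.

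At the lysosomal membrane the channel MCOLN1 rose and the main structural protein LAMP1 did not pass. MCOLN1, mucolipin 1, which releases calcium from the lysosome and is known to activate TFEB through calcineurin, had log2 levels of 8.97 and 9.23 with TARBP2 against 8.23 and 8.30 with GFP. The TARBP2 arrays differed by about 0.27 but both lay well above the GFP arrays, a rise of 1.79-fold (log2 change 0.84 ± 0.11, adjusted p = 0.00634). LAMP1 was bright on every array, at 12.40 and 12.44 against 12.32 and 12.50, with overlapping groups (log2 change 0.01 ± 0.10, adjusted p = 0.945). LAMP2, the membrane protein also used in chaperone-mediated autophagy, was at 11.56 and 11.62 against 11.28 and 11.17. Its brighter probe rose by 0.36 ± 0.08 (adjusted p = 0.0254) and its other probe, at 0.13, did not pass (adjusted p = 0.202). The rise was lost without any 1 of the 4 arrays (adjusted p between 0.0565 and 0.109). A further LAMP2 accession without a tied probe, NM_013995, had a log ratio of -0.07 in the authors' deposited table, beside 0.24 for the accession NM_002294 of the tied probes.

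NPC1 and NPC2, which together export cholesterol from the lysosome, did not pass. NPC1 was at 12.67 and 12.58 with TARBP2 and 12.67 and 12.63 with GFP, and NPC2 at 13.86 and 13.72 against 13.92 and 13.94. Their log2 changes were -0.03 ± 0.08 (adjusted p = 0.813) and -0.14 ± 0.09 (adjusted p = 0.247). TFEB was detected on 1 TARBP2 array and on neither GFP array, at log2 levels of 5.12 and 4.75 against 4.85 and 4.67. It was therefore not tested, and its level could not be told from background.

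The V-ATPase members showed small changes in both directions, with log2 changes from -0.32 to 0.43. Of 9 tested, 2 rose and 2 fell, where 25.1% of all genes rose and 24.1% fell. ATP6V1A, the catalytic subunit that hydrolyses ATP, was at 11.66 and 11.62 with TARBP2 against 11.15 and 11.27 with GFP, a rise of 0.43 ± 0.08 (adjusted p = 0.0155). ATP6AP2, an accessory subunit also known as the prorenin receptor, was at 12.31 and 12.34 against 11.92 and 12.06, a rise of 0.33 ± 0.09 (adjusted p = 0.035). ATP6V1D, a subunit of the rotating stalk, was at 12.02 and 12.15 against 12.42 and 12.40, a fall of 0.32 ± 0.08 (adjusted p = 0.0378). ATP6AP1, an accessory subunit of the membrane sector, was at 12.18 and 12.19 against 12.42 and 12.48, a fall of 0.27 ± 0.08 (adjusted p = 0.0442). The TARBP2 and GFP arrays of these genes did not overlap, but each of the 4 calls was lost on leaving out at least 3 of the 4 arrays, 1 at a time. ATP6AP1, ATP6AP2 and ATP6V1D were lost without any 1 array, and ATP6V1A was lost without either TARBP2 array and without replicate 1 of the GFP arrays, at adjusted p-values between 0.0589 and 0.169 for the 4 genes. The same 3 genes were lost without a detection filter and with the replicate number as a block, at adjusted p-values between 0.0517 and 0.0834.

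The other V-ATPase members did not pass on their brightest probes. ATP6V0D1, which links the stalk to the proton ring, had log2 levels of 9.50 and 9.70 with TARBP2 and 9.91 and 9.84 with GFP. Its log2 change was -0.28 ± 0.10 (adjusted p = 0.0806), and it passed on the authors' quantile-normalized intensities (adjusted p = 0.0358), while with the neighbours' median removed it was -0.0057 (adjusted p = 0.964). ATP6V1B2, a regulatory subunit that binds ATP, and ATP6V1H, a regulator of the pump, had log2 changes of 0.12 and -0.11 (adjusted p = 0.36 and 0.309). ATP6V0E1, a small subunit of the membrane sector, was at 12.78 and 12.86 against 12.61 and 12.83 on its brightest probe and did not pass (log2 change 0.10, adjusted p = 0.484), while its other probe rose by 0.30 (adjusted p = 0.0402). ATP6V1E1, a subunit of the outer stalk, was at 12.56 and 12.58 against 12.62 and 12.83 and did not pass (-0.15, adjusted p = 0.28), while its other probe fell by 0.37 (adjusted p = 0.0392). For both genes the probes had the same sign and differed in whether they passed. No probe could be tied to ATP6V1C1, a stalk subunit, whose log ratio in the authors' deposited table was 0.13.

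Of the 17 members that changed, 7 kept their call in every alternative that could be run for them, including without each array in turn. These were OPTN, MCOLN1 and CTSZ among the rises and CTSC, SQSTM1, ATG5 and ATG12 among the falls. Across those alternatives the highest adjusted p was 0.0232 for OPTN, 0.0204 for CTSC and 0.0352 for SQSTM1, and it was 0.0471 for ATG12. With 1 array left out, fewer members rose and fewer fell, and the same held for all detected probes.

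Several members lay among chromosomal neighbours that shifted together, and the median log2 change of the 50 nearest tested genes is given beside them here. OPTN on chromosome 10 had a neighbourhood median of 0.47, and still passed at 0.80 after subtraction (adjusted p = 0.00156). MCOLN1 on chromosome 19 had a median of 0.22. ATP6AP2 on the X chromosome lay among neighbours with a median of 0.45, and subtracting it turned the change to -0.12 (adjusted p = 0.256). ATP6AP1, also on the X chromosome, had a median of -0.33, and its change became 0.06 (adjusted p = 0.524). Both accessory subunits thus lost their calls and changed sign, and ATP6V1D also lost its call, at -0.22 (adjusted p = 0.0703). ATP6AP2 was lost under median scaling as well (log2 change 0.30, adjusted p = 0.0531). LAMP2 on the X chromosome went against neighbours with a median of -0.36, and stood at 0.73 after subtraction. SQSTM1 and CTSC had medians of -0.0083 and -0.02. The part of such neighbourhood shifts in the results was not tested beyond this subtraction.

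**Figure D4:**
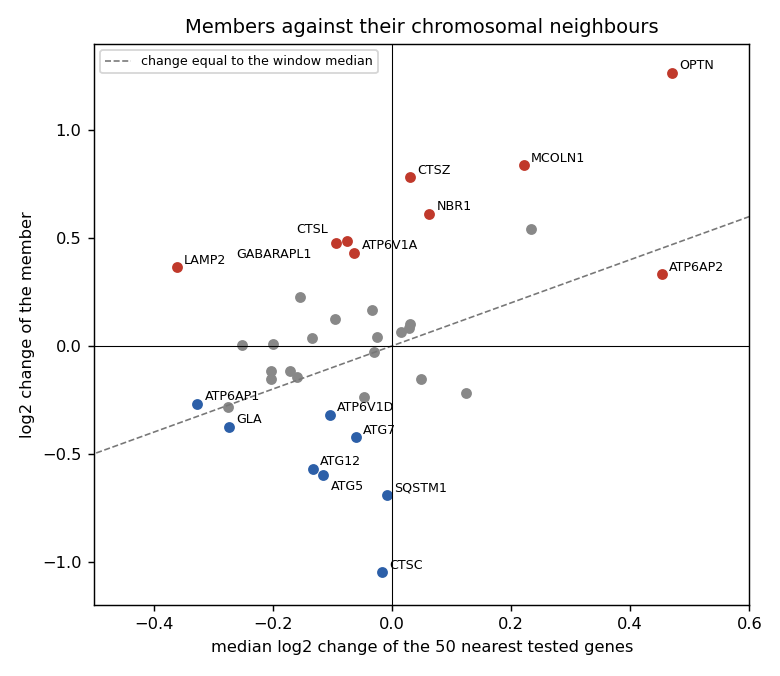
Log2 change of each member tested (y axis) against the median log2 change of its 50 nearest tested genes (x axis), with red for rose, blue for fell and grey for did not pass, and a dashed line where both are equal. ATP6AP1 and ATP6AP2 lie near the dashed line, while CTSC and SQSTM1 lie far from it at medians near 0.

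TFEB is known to bind an element whose core is CACGTG, and the promoters of members were read for these letters. RefSeq promoter windows of GRCh38.p14, from 250 bases before to 50 bases after each start, were read for 35 of the 43 members. Of the 20 members that did not pass, 15 were read. The windows read do not cover the whole genome, so the shares below hold only for the genes read. The core, which reads the same on both strands, was found for 7 of the 35 (20.0%), against 8.8% of the 27305 genes read. The members are of the kinds of genes that TFEB is known to switch on, so this comparison describes them and is no test. The longer form TCACGTG, searched on both strands and containing the core, was found for the same 7 members (20.0%) and for 4.5% of the genes read. By call, the core was held by 1 of 7 members that rose, 0 of 8 that fell and 5 of 15 that did not pass, and the other was ATG3, which was not tested. MCOLN1 was the member that rose, while LAMP1, with the most matches, had overlapping groups at a log2 change of 0.01. No window of SQSTM1 or CTSC holds these letters, which says nothing about binding of the factor elsewhere. No match was found for OPTN or CTSZ either. A window was read for only 7 of the 9 members that rose, so a missing match there can also be a missing window. The stretches before the start of the 6 tested members with a match are shown 5′ to 3′ to set MCOLN1 beside the members that did not pass, with the core in capitals. Each runs up to the start except that of NEU1, which begins 150 bases before the start and leaves out the 90 bases next to it, so that its match begins 126 bases before the start.
MCOLN1, chr19:7522564-7522623, plus strand: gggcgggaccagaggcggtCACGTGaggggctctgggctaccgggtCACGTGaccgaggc
CTSA, chr20:45891275-45891334, plus strand: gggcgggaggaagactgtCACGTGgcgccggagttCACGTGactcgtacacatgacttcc
CTSD, chr11:1763928-1763987, minus strand: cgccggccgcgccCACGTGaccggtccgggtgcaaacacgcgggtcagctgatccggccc
ATP6V0D1, chr16:67481158-67481217, minus strand: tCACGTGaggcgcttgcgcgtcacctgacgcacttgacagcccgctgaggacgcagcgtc
NEU1, chr6:31862912-31862971, minus strand: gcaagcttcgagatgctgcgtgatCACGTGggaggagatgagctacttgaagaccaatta
LAMP1, chr13:113297039-113297238, plus strand: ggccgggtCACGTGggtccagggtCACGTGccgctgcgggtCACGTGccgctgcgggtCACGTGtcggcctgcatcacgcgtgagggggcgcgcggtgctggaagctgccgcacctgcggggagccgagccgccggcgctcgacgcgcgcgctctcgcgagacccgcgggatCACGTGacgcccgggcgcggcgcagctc
MCOLN1 and CTSA each hold 2 matches close to the start, at log2 changes of 0.84 and 0.06. LAMP1 holds 5 matches in the stretch shown and a further match across its start.

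Other genes of the same pathways were taken from lists made by function, with earlier results of these data known. Of 27 other autophagy genes tested, 9 rose and 4 fell, with a median log2 change of 0.18, beside 25.1% higher and 24.1% lower among all genes. Leaving out TARBP2 replicate 1 left 4 rises and 0 falls, GFP replicate 2 left 6 and 0, GFP replicate 1 left 8 and 0, and TARBP2 replicate 2 left 7 and 2. MAP1LC3A, another LC3 protein, rose 1.98-fold from 9.25 and 9.27 on the GFP arrays to 10.22 and 10.27 (adjusted p = 0.00139). That was its only detected probe, and its other probes were not detected on any array. FUNDC1, a receptor for autophagy of mitochondria, rose by 0.73 ± 0.07 (adjusted p = 0.00286; 0.40 with the neighbours' median removed), ATG2B, a lipid transfer protein, by 0.93 ± 0.11 (0.00434) and ATG4C, a protease that processes ATG8 proteins, by 0.65 ± 0.09 (0.0062). MAP1LC3A thus rose on its detected probe while MAP1LC3B did not pass, and the difference between them was not tested.

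Of 36 other lysosomal genes tested, 9 rose and 7 fell (median log2 change -0.06), against the same 25.1% and 24.1% of all genes. With 1 array left out, 5 to 7 rose and 3 to 5 fell, with the fewest rises without TARBP2 replicate 1 and the fewest falls without TARBP2 replicate 2. GALC, galactosylceramidase, fell 2.75-fold, from 11.39 and 11.47 on the GFP arrays to 9.85 and 10.10 (adjusted p = 0.00139). IDS, iduronate sulfatase, fell by 0.94 ± 0.08 (adjusted p = 0.00173; by 0.62 with the neighbours' median removed), and its other detected probes fell by 0.75 and 0.83. The cathepsins CTSV and CTSF rose 1.94-fold and 1.98-fold (adjusted p = 0.00151 and 0.00187).

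Of 11 other V-ATPase genes tested, 6 rose and 2 fell, with a median log2 change of 0.35, where 25.1% of all genes rose and 24.1% fell. Without any 1 array 5 rose and 0 fell, and with the replicate number as a block 6 rose and 1 fell. ATP6V0A4, a membrane subunit best known in kidney, rose 2.08-fold (adjusted p = 0.00151) within a neighbourhood whose median was 0.68, and stood at 0.38 on the log2 scale with it removed. TCIRG1, the related subunit of osteoclasts, rose by 0.81 ± 0.07 (adjusted p = 0.00224), ATP6V0E2 by 0.68 ± 0.08 (0.00391) and ATP6V1F by 0.64 ± 0.08 (0.00438). The other TCIRG1 probes were not detected on any array. ATP6V1F lay among neighbours with a median of 0.46 and did not pass with it removed (log2 change 0.18, adjusted p = 0.0867). MAP1LC3A, ATG4C, IDS, ATP6V0A4, TCIRG1, LAMTOR3 and RRAGB were named through pairs of probes. Such a tie was made only where few pairs could match by chance. This favours large log ratios, so the lists lean towards genes that changed. Among members, the brightest probes of ATG12, LAMP2, GLB1, ATP6V0E1 and ATP6V1E1 and the dimmer CTSL probes were also named through pairs.

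Of 17 genes that regulate mTORC1 and the TFEB family at the lysosome, 4 rose and 3 fell (median log2 change 0.02; 25.1% and 24.1% of all genes). With 1 array left out, 3 or 4 rose and 3 fell. MITF, a transcription factor of the TFEB family, fell 3.34-fold, from 9.10 and 9.20 on the GFP arrays to 7.47 and 7.35 (adjusted p = 0.000519). RRAGB, a GTPase that recruits mTORC1 to the lysosome, rose 2.71-fold (adjusted p = 0.00111), and LAMTOR3, a subunit of its anchor, rose 1.94-fold (adjusted p = 0.00149), with a log2 change of 0.37 on the probe of its single-probe accession. TSC2, which restrains mTORC1, fell by 0.81 ± 0.08 (adjusted p = 0.00239). TFE3, a further factor of the TFEB family, did not pass (log2 change 0.10, adjusted p = 0.426).

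**Figure D5:**
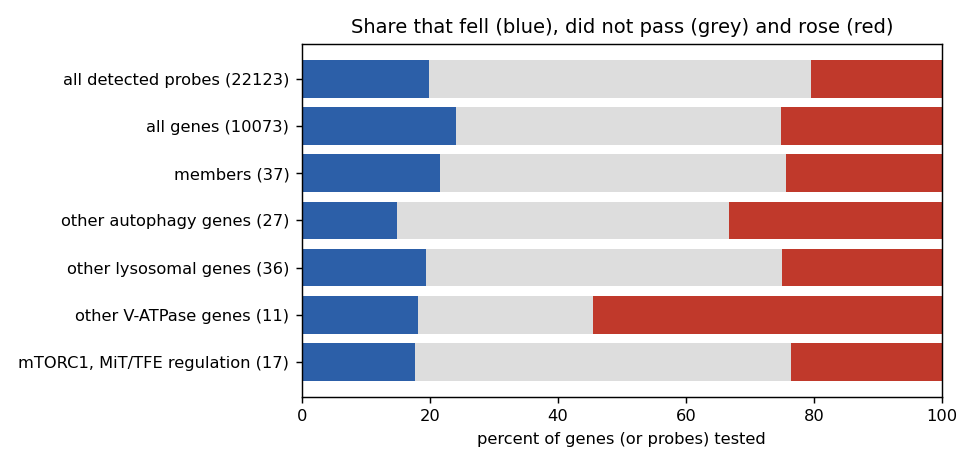
Percent of the genes tested (x axis; probes in the first bar) that fell (blue), did not pass (grey) and rose (red), for all detected probes, all genes, the members and 4 lists of related genes, with the number tested in brackets. The bar of the 37 members (21.6% fell, 24.3% rose) resembles that of all genes (24.1% and 25.1%), and the bar of the 11 other V-ATPase genes has the widest red part.

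Macrophages are rich in lysosomes, and their markers were read beside the lysosomal genes. Of 6 leukocyte and macrophage markers, 5 had a tied probe. CD14 rose 3.90-fold (log2 levels 9.21 and 9.27 against 7.43 and 7.13) and CSF1R, which 1 of the GFP arrays did not detect, rose by 1.71 ± 0.11 (adjusted p = 0.000863 and 0.000881). PTPRC, CD163 and ITGAM were not detected on any array, and PTPRC defines leukocytes. The raw intensities of the brightest probe of each marker summed to 997 and 1024 on the TARBP2 arrays and to 516 and 504 on the GFP arrays. The part of CD14 and CSF1R in the results for lysosomal genes was not tested. In such bulk samples, fewer cells that express a gene and less RNA per cell cannot be told apart.

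The authors' final table classes accessions as down-regulated or background and has no class for higher values. That deposited list holds 52 accessions that belong to the 43 members. Of them, 12 accessions of 11 genes were classed as down (23.1%), against 8.44% of all 39747 accessions, which include those of probes that were not detected. The 11 genes comprise the 8 that fell here together with CTSB, ATP6V0D1 and ATP6V1E1, whose brightest probes did not pass. The lowest log ratio of a member in the authors' deposited table was that of SQSTM1, at -0.70. The highest were 1.29 for NM_001079811 of GLB1, 0.99 for OPTN and 0.62 for MCOLN1 in the same table.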

How the data were processed

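Total RNA was measured on 4 arrays. The deposited non-normalized intensities are linear bead brightnesses of 47323 probes, each with a deposited detection p-value. The authors' series matrix holds quantile-normalized intensities, and lumi is named per the submitters' processing notes, with no version in the sources used here. Per the file headers, the authors' final table holds a log ratio per accession, treated as log2, and a class code.

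No table pairs probes with genes. Accessions were tied to probes where the authors' log ratio equalled, to within 1e-09, the difference of group means of 1 fitted scaled inverse hyperbolic sine of the series-matrix intensities. This tied 33113 of 39747 accessions (83.3%) to 1 probe, against 11.7 in tables shifted by a constant. A further 1424 were tied to a pair of probes to within 7e-10, against 63.3 in shifted tables, and this favours large log ratios. The limit on chance pairs was set after the data were seen. Symbols came from RefSeq on GRCh38.p14 for 16561 genes.

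Intensities were background-corrected with normexp (moments from detection p-values, offset 16), quantile normalized and taken to log2 (neqc, limma 3.58.1, R 4.3.3). Testing, for probes detected at p under 0.05 on 2 or more of the 4 arrays, was with lmFit and eBayes (2 residual and 2.81 prior degrees of freedom), 2-sided, with Benjamini-Hochberg adjustment over all 22123 probes. A gene is read by its detected probe of highest mean level. The number of arrays limits the precision. The tie and the fit were tested on simulated data. The fit recovered 66% of simulated log2 changes of 0.5 and 100% of those of 1, with 7 false calls. Real changes of 0.5 or less can therefore be missed. Of 4000 simulated pairs the tie named 708, and 100% of those named were right. Other offsets, normalizations, filters, gene rules, a replicate block, neighbours' medians and leaving out arrays were tried as alternatives. The members and lists were chosen with earlier results of these data known. Levels on each array are given for up to 4 members of smallest p per role and where probes disagree, and up to 4 genes per list are named. TFEB, the untied members, the members outside that rule and the markers are given for completeness, and TFE3 was chosen after its value was seen.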

Additional observations from a re-analysis of the deposited data

How the results depend on the processing

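The direction of change was kept by every member that changed under the alternatives run for it, except ATP6AP1 and ATP6AP2, whose log2 changes became 0.0579 and -0.1207 when the median of 50 chromosomal neighbours was removed. Leaving out 1 array gave 2316 to 3054 probes that rose and 2279 to 2761 that fell, and 3 to 7 members that rose and 4 to 5 that fell. These fits rest on fewer samples and the lone array of a group is assumed to vary like the other group. In TARBP2 versus GFP with 1 probe per gene, 2912 of 10073 genes rose (28.9%) and 2858 fell (28.4%). In the main fit 25.1% and 24.1% of the same genes did. With genes named through single-probe accessions, 2304 of 9021 rose (25.5%) and 2264 fell (25.1%). These counts are lower than those over all detected probes since fewer features were tested, while the shares are higher. The replicate numbers do not pair the arrays, which share only a number, and deviations of same-numbered arrays had a correlation of 0.0062 across probes. With the replicate number as a block 4126 probes rose and 3941 fell, as did 7 and 6 members. Median scaling left 8 members higher and 8 lower. Dim probes such as those of NBR1, TFEB, CTSC and CTSZ limit what folds can be read.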
